A study of Homo sapiens with 6 samples.

Results

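NEAT1 and MALAT1 are long noncoding RNAs that stay in the nucleus, and SFPQ, NONO, PSPC1, RBM14 and TARDBP encode nuclear RNA-binding proteins that gather with NEAT1. These 7 genes were chosen by name, with earlier results of these data known, from the 23686 genes counted in each of 6 RNA-seq libraries. All 7 passed the filter on low counts. The libraries come from HEK293, an established human embryonic kidney line, and every sequenced cell carried green fluorescent protein (GFP). The ROS co-culture group holds 3 libraries from GFP-positive cells grown beside HEK293 cells that carry DAAO and release reactive oxygen species (ROS). Their protocol text gives 25 µM D-alanine, the substrate of DAAO (D-amino acid oxidase, which yields hydrogen peroxide), and 10 h. The control group holds 3 libraries of GFP-positive HEK293 cells, labelled Wt controls. Both groups went through fluorescence-activated sorting, and all cells were grown in high-glucose DMEM with serum. A single treatment text is attached to all samples, so whether the controls had D-alanine or partner cells is not given in the sources used here. It is likewise not given whether the libraries of a group came from separate cultures, so p-values measure the spread between these samples, which may be technical.

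Paraspeckles are small nuclear bodies built on the long form of NEAT1. The DBHS proteins SFPQ, NONO and PSPC1 bind one another as dimers and coat NEAT1, and the long form of NEAT1 is lost from cells when SFPQ or NONO is missing. RBM14 bridges parts of the body, and TARDBP (TDP-43) binds UG-rich stretches of RNA and is found in paraspeckles under stress. MALAT1 is the neighbour of NEAT1 on chromosome 11 and lies in nuclear speckles, bodies rich in splicing factors. NEAT1 is known as a stress-induced RNA, and the comparison asks how these RNAs stood in cells whose neighbours produced ROS.

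Of the 7 genes, PSPC1 and SFPQ fell in co-culture and 5 did not pass the test. PSPC1 fell by 27.5% and SFPQ fell by 16.3%, while NONO, the most abundant DBHS RNA, stood 2.86% below the controls at -0.04 on the log2 scale and did not pass. NEAT1 was 24.9% above the controls and missed the threshold in edgeR's quasi-likelihood test (adjusted p 0.0589). MALAT1, RBM14 and TARDBP had fitted differences of 8.01%, -4.74% and -0.300%, none of which passed. Over all 14582 genes tested, 4.83% passed this test, against 2 of these 7 genes. Of all genes 2.66% passed as higher and 2.17% as lower, against 0 and 2 of the 7. As the 7 were chosen with earlier results known, these shares are no independent comparison. Reads on each gene's reverse strand were tested, with Benjamini-Hochberg adjustment over all tested genes at 0.05.

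**Figure D1:**
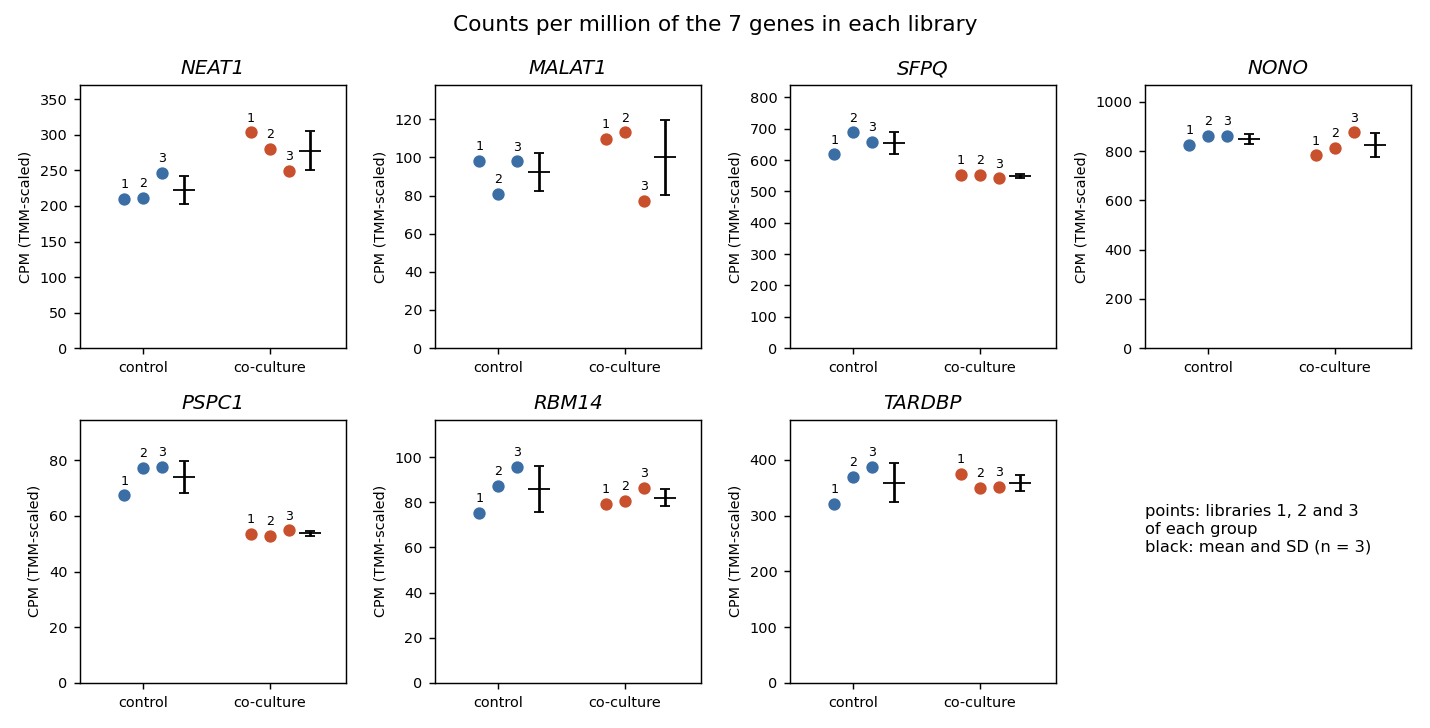
Expression level in CPM (read counts scaled to library size by trimmed means of M-values, TMM) of each gene in the control and co-culture libraries, with library numbers above the points and the mean ± SD (n = 3) in black. All 3 co-culture points lie below all 3 control points for SFPQ and PSPC1, and above them for NEAT1, where control 3 (246 CPM) and co-culture 3 (249.8 CPM) nearly touch.

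The libraries held 19091085 to 36250314 reads on genes. The 7 HEK293 markers checked were all present, from PAX2 at 5.80 CPM or more to VIM at up to 1318 CPM. Their summed level ran from 2238 to 2458 CPM in co-culture and from 1860 to 1970 CPM in the controls, a difference whose part in the results was not tested. VIM alone ran from 1257.5 to 1318 CPM in co-culture and from 925 to 998 CPM in the controls. KRT18 and NEFL were also higher in every co-culture library, while KRT8, NEFM, PAX2 and LIN28B overlapped between the groups. Markers of other cell types (10 genes) summed to 0.782 to 1.25 CPM under co-culture, against 1.07 to 1.36 CPM for controls. CD3E and HBB had 0 reads, while GFAP had 102 reads over the 6 libraries (0.615 to 1.00 CPM) and DCN had 17. DAO, the human gene for the oxidase, had 0 reads in every library, which allows up to 0.0828 to 0.157 CPM and would not count a transgene of another sequence. Co-culture 2 and 3 stand apart from the rest in a technical measure. The forward strand is opposite to the one counted, and its share of a gene's reads had a median of 0.124% and 0.211% there, against 1.57% to 1.75% in the other 4 libraries. That class holds no control, so each of the 7 genes is also given with a model term for the class. In that fit the group difference rests on co-culture 1 against the 3 controls, and 0.199% of all genes passed.

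Which forms of NEAT1 and MALAT1 reach such counts depends on their ends, and 4 stretches are shown for that reason. The library kit is one for mRNA, which as background means capture of poly(A) tails. MALAT1 and the long form of NEAT1 carry no such tail: RNase P cuts them, and the new end folds into a triple helix of U-rich motifs around an A-rich tract. The short form of NEAT1 ends at an ordinary polyadenylation signal. Each stretch below is read 5′ to 3′ on the transcript's own strand from the longest GENCODE 29 transcripts of MALAT1 (8708 bases) and NEAT1 (22743 bases), with T written for U. Capitals mark the U-rich motifs and the A-rich tract in the 3′ end elements, AATAAA and TGTA at the signal of the short form, and the TG run in the last stretch. The tract was marked by unlike rules, as the unbroken run of A in MALAT1 and as the end of the transcript in NEAT1.
MALAT1 3′ end element, bases 8263 to 8356: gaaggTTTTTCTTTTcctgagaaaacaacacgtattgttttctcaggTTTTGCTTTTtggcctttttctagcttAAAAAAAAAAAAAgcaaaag
NEAT1 3′ end element, bases 22649 to 22743: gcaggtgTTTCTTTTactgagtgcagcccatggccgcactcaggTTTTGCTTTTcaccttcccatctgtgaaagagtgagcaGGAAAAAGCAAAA
NEAT1 short form signal, bases 3616 to 3745: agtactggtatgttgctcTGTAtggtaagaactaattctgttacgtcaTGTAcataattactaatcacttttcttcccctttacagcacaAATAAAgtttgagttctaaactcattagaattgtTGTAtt
NEAT1 TG run, bases 21447 to 21544: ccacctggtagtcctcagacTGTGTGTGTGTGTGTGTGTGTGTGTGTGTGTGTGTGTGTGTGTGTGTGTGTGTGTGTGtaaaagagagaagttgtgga

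Both 3′ end elements hold the same 10 letters TTTTGCTTTT, a motif that was picked because they share it. It occurs in 0.0659% of 94-base and 0.0674% of 95-base windows, laid without overlap along 14371 GENCODE lincRNA transcripts. MALAT1 adds an unbroken run of 13 A. The signal AATAAA is in 7.70% of 130-base windows. TGTA, the letters that the cleavage factor subunit NUDT21 binds, is in 33.9% of such windows and occurs 3 times in the one shown. The NEAT1 transcript holds 7 TG runs of at least 8 bases and the MALAT1 transcript holds 0. Its longest run, of 58 bases, made it the 1 transcript of the 14371 with a run of that length. These matches describe letters and were not tested as binding sites. Since the deposited values are counts per gene, the NEAT1 values below do not tell the short and the long form apart. MIR612, a microRNA gene inside NEAT1 on the same strand, is counted apart and had 16 reads over the 6 libraries.

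NEAT1, of which only the long form is the scaffold, stood at 210 CPM in control 1, 212 CPM in control 2 and 246 CPM in control 3. In co-culture it stood at 304 CPM in library 1, 281 CPM in library 2 and 249.8 CPM in library 3. Every co-culture library was therefore higher than every control, but the nearest pair, co-culture 3 and control 3, was 3.81 CPM apart, within the counting SD of that difference of 4.05 CPM. The group means were 278 ± 27.0 and 222 ± 20.4 CPM (SD, n = 3 each). The log2 fold change was 0.32 (SE 0.09) with a 95% interval, not adjusted for multiple tests, from 0.13 to 0.51 (edgeR adjusted p 0.0589). With a strand-class term it was 0.45 (edgeR adjusted p 0.197). NEAT1 passed in 3 of the 14 alternative analyses, among them DESeq2's test (adjusted p 0.00886), and the adjusted p ranged from 0.00886 to 0.221 over the 14.

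Within each group NEAT1 was ordered as the share of reads that fell in no annotated gene. In co-culture 1, 2 and 3 that share was 17.7%, 16.7% and 14.8%. In controls 1, 2 and 3 it was 15.5%, 15.8% and 16.5%. Co-culture 3 had the lowest share of all 6 libraries. Its NEAT1 level was 249.8 CPM beside 246 CPM in control 3, a gap within its counting SD. This ordering was noticed in the data, and the part of the no-gene share in the NEAT1 result was not tested.

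**Figure D2:**
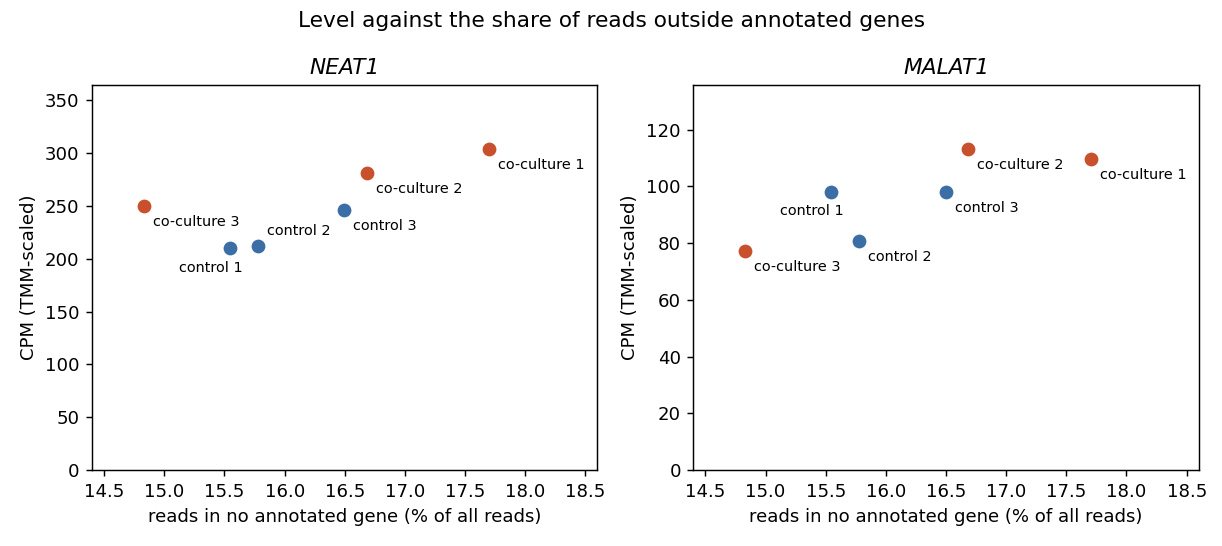
TMM-scaled CPM of NEAT1 (left) and MALAT1 (right) against the percentage of each library's reads that fell in no annotated gene, with 1 point per library, controls in blue and co-culture in red. NEAT1 goes from 210 to 246 CPM over the controls (15.5% to 16.5%) and from 249.8 to 304 CPM over the co-culture libraries (14.8% to 17.7%).

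MALAT1, the nuclear speckle RNA, stood at 98.0, 80.8 and 97.9 CPM in controls 1, 2 and 3. Co-culture 1, 2 and 3 held 109, 113 and 77.3 CPM. Co-culture thus held both the highest and the lowest library, and the groups overlapped. The co-culture mean was 99.96 ± 19.7 CPM and the control mean 92.2 ± 9.92 CPM (SD, n = 3 each). The log2 fold change was 0.11 (SE 0.15, 95% interval -0.22 to 0.44, edgeR adjusted p 0.691). Its coefficient of variation in co-culture was 19.7%, the highest of the 7 genes, against a median of 3.67% in the same group over the 5380 genes with at least 50 CPM. The lowest MALAT1 count was 1548 reads, which gives a counting error of 2.54%. Without co-culture 3 the log2 fold change was 0.27 (edgeR adjusted p 0.143), and with a strand-class term it was 0.25 (edgeR adjusted p 0.645).

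A ratio of reads within a library does not depend on how libraries are scaled. There were 2.77, 2.48 and 3.23 NEAT1 reads for each MALAT1 read in co-culture 1, 2 and 3. In controls 1, 2 and 3 there were 2.14, 2.62 and 2.51. Co-culture 2 lay below controls 2 and 3, so the groups overlapped. The geometric mean ratio was 16.4% higher in co-culture, a difference that did not exceed the spread (two-sided exact permutation test, p = 0.3, adjusted over 3 ratios 0.3, where 3 against 3 cannot go below 0.1).

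PSPC1, the least abundant DBHS protein RNA, had the largest fitted change of the 7 genes in either direction. It stood at 67.4, 77.4 and 77.6 CPM in controls 1, 2 and 3. The co-culture values were, in the same order, 53.5, 52.9 and 54.8 CPM. The 3 co-culture libraries lay within 2 CPM of one another and 12.5 CPM or more below every control, where the counting SD of that gap was 2.22 CPM. The means were 53.8 ± 0.978 and 74.1 ± 5.83 CPM (SD, n = 3 each). The log2 fold change was -0.46 (SE 0.07, 95% interval -0.62 to -0.31, edgeR adjusted p 0.00669). PSPC1 kept this call in 11 of 14 alternatives and lost it with a strand-class term (-0.47, edgeR adjusted p 0.178), without co-culture 2 (-0.45, 0.0651) and without control 2 (-0.43, 0.0609). Its adjusted p over the alternatives ranged from 6.66e-06 to 0.178. In bulk RNA, fewer cells with the transcript and less of it per cell cannot be told apart.

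SFPQ, which binds NEAT1 and is needed to keep its long form, stood at 618, 688 and 659 CPM in controls 1, 2 and 3. In co-culture the levels were 551, 552 and 541 CPM. All co-culture libraries were lower than all controls, with a gap of 65.5 CPM between the nearest pair. The means were 548 ± 6.25 and 655 ± 35.4 CPM (SD, n = 3 each). The log2 difference came to -0.26 (SE 0.06, 95% interval -0.40 to -0.12, edgeR adjusted p 0.0454). That call was close to the threshold: it held in 7 of 14 alternatives, with adjusted p-values from 0.000498 to 0.356. It was lost without any 1 library other than control 1 (edgeR adjusted p 0.0664 to 0.202) and with a strand-class term (-0.25, edgeR adjusted p 0.356).

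NONO, the common partner of both, stood at 825, 861 and 861 CPM in controls 1, 2 and 3. In co-culture 1, 2 and 3 it stood at 783, 814 and 876 CPM. Co-culture 3 was the highest and co-culture 1 the lowest of the 6 libraries, so the groups overlapped. Its log2 fold change was -0.04 (SE 0.07, 95% interval -0.19 to 0.10, edgeR adjusted p 0.744), and it passed in 0 of 14 alternatives. The interval spans changes from -12.2% to 7.43%. With the strand-class term NONO stood at -0.12 (edgeR adjusted p 0.656).

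The balance among the DBHS RNAs was read within each library. There were 0.0683, 0.0650 and 0.0626 PSPC1 reads per NONO read in co-culture 1, 2 and 3, against 0.0817, 0.0899 and 0.0901 in the controls, a difference of -25.1%. SFPQ reads per NONO read were 0.705, 0.678 and 0.618 in co-culture and 0.749, 0.799 and 0.765 in the controls, a difference of -13.6%. Neither ratio overlapped between the groups. Each gave the smallest p that this design allows (two-sided exact permutation test, p = 0.1, adjusted over 3 ratios 0.15), so neither could reach 0.05.

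**Figure D3:**
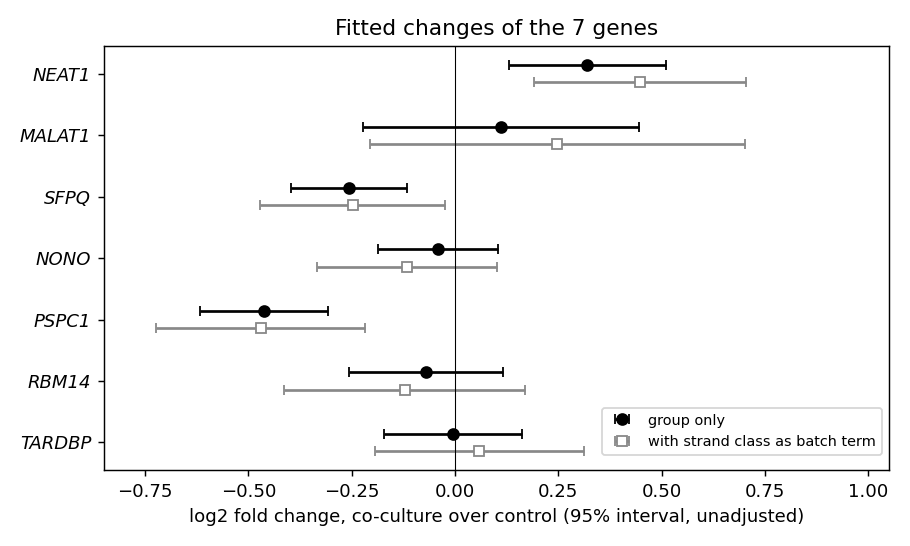
Log2 fold change of each gene, co-culture over control, with unadjusted 95% intervals, fitted on group alone (filled circles) and with a strand-class term (open squares). PSPC1 (-0.46 and -0.47) and SFPQ (-0.26 and -0.25) lie below 0 and NEAT1 (0.32 and 0.45) above it in both fits, with wider intervals under that term, where none of the 7 passed after adjustment.

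RBM14, which links the inner and outer parts of paraspeckles, stood at 75.4, 87.2 and 95.6 CPM in controls 1, 2 and 3. In co-culture 1, 2 and 3 it stood at 79.2, 80.5 and 86.3 CPM, all within the control range. Its log2 fold change was -0.07 (SE 0.08, 95% interval -0.26 to 0.12, edgeR adjusted p 0.655), and -0.12 with the strand-class term (edgeR adjusted p 0.736). A read-through gene, RBM14-RBM4, is also listed and had 0 reads in all 6 libraries. Reads on the same strand in exons shared by both are dropped as ambiguous, so RBM14 may be undercounted in every library.

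TARDBP stood at 321, 370 and 387 CPM in controls 1, 2 and 3. In co-culture 1, 2 and 3 it stood at 374, 349 and 351 CPM, again within the control range. The log2 fold change was -0.00 (SE 0.08, 95% interval -0.17 to 0.16, edgeR adjusted p 0.980), and its sign depended on the setting, as with the strand-class term (0.06, edgeR adjusted p 0.870). Changes from -11.2% to 11.98% lie within the interval.

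Across the 7 genes, groups did not overlap for NEAT1, SFPQ and PSPC1, which is 3 of 7 beside 29.3% of all tested genes. At an unadjusted p under 0.05 there were the same 3, beside 23.2% of all tested genes. The median log2 fold change of the 7 was -0.04, against -0.00 over all tested genes.

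Levels of different genes were compared per kilobase of the longest GENCODE 29 transcript, as mean CPM per kilobase in the controls. NONO was highest at 264, followed by SFPQ at 175 and TARDBP at 66.9. PSPC1 and RBM14 were next at 30.8 and 30.4, closer than the spread between libraries. RBM14 may be undercounted, as said above, which bears on each comparison of it with PSPC1 here. MALAT1 stood at 10.6. For NEAT1 the value turns on the form: 9.78 if all reads are spread over the 22743 bases of the longest transcript, or 64.7 over the 3441 bases of a short one. In co-culture the mean level was 22.3 for PSPC1 and 28.98 for RBM14, and PSPC1 was the lower in all 3 libraries. In the controls PSPC1 was above RBM14 in libraries 1 and 2 and below it in library 3.

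Reads on the unexpected strand were not spread evenly over the 7 genes. MALAT1 had 5.09% to 7.17% forward-strand reads in the 4 libraries of the larger class and 0.377% and 1.21% in co-culture 2 and 3. These are 3.03 to 5.75 times the library's median over 4907 highly counted genes. TARDBP (1.75 to 4.85 times), SFPQ (2.47 to 3.45 times) and PSPC1 (1.83 to 5.03 times) were also above the median in every library. NONO and RBM14 were below it in all 6. NEAT1 was mixed, at 0.272 times the median in co-culture 2, where it had 2 forward-strand reads, and at 1.06 to 1.70 times in the other 5 libraries. In these counts an antisense transcript and imperfect marking of strand cannot be told apart.

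Beyond the 7, a list of 35 proteins found in paraspeckles was examined, all of them tested. ZC3H6, a zinc finger protein, was the 1 gene past the threshold, at 13.4, 13.9 and 12.2 CPM in co-culture 1, 2 and 3 against 10.7, 7.62 and 8.29 CPM in the controls. It rose by 0.57 on the log2 scale (SE 0.14, edgeR adjusted p 0.0405), a call that held in 5 of 14 alternatives (adjusted p from 0.000304 to 0.295). It was lost without any 1 library other than control 1. The list's share called was 2.86% beside 4.83% of all genes, and its median log2 fold change was -0.03, with 15 genes above 0 and 20 below. The groups did not overlap for 6 of the 35, beside 29.3% of all tested genes, and 4 had an unadjusted p under 0.05, beside 23.2%. Neither count stands above the share over all genes.

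EWSR1 and TAF15, RNA-binding proteins of that list, stood at -0.11 and 0.07 on the log2 scale (SE 0.07 for both, edgeR adjusted p 0.346 and 0.572).

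The choice between the short and the long form of NEAT1 is known to turn on NUDT21, CPSF6 and CPSF7, which favour cleavage at the short form's signal, and on HNRNPK, which opposes it. NUDT21, CPSF6 and CPSF7 had log2 fold changes of 0.12, 0.11 and 0.01, and HNRNPK had -0.11 (edgeR adjusted p 0.288 to 0.939). The list of these factors with RNase P and Integrator subunits held 18 tested genes, TARDBP among them. Of these, 0 passed edgeR's test, beside 4.83% of all tested genes, and 3 had an unadjusted p under 0.05, beside 23.2%. Groups did not overlap for 4 of the 18, beside 29.3%. The list's median was -0.02. MATR3, a nuclear matrix protein that binds SFPQ and NONO, had 0.11 (SE 0.09, edgeR adjusted p 0.512). Control 1, at 590 CPM, lay below the other 5 libraries, which ran from 741 to 759 CPM. Without control 1 the log2 fold change of MATR3 was -8.04e-06.

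Among 5 transcription factors known to act on NEAT1, 0 passed edgeR's test, beside 4.83% of all tested genes. An unadjusted p under 0.05 was found for 2, beside 23.2%, and groups did not overlap for 2, beside 29.3%. The median log2 fold change was -0.07, with 1 of 5 above 0. These are RNA levels and say nothing of the factors' activity.

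Nuclear speckle proteins, the surroundings of MALAT1, held 17 tested genes. U2AF1, the splicing factor subunit that reads the 3′ splice site, was the 1 gene past the threshold. It fell from 230, 245 and 236 CPM in controls 1, 2 and 3 to 207, 183 and 204 CPM in co-culture, with no overlap. The log2 fold change was -0.26 (SE 0.07, edgeR adjusted p 0.0490), a call that held in 5 of 14 alternatives (adjusted p from 0.00248 to 0.455) and was lost without any 1 library other than control 1. The list's share called was 5.88% beside 4.83% of all genes. Groups did not overlap for 5 of the 17, beside 29.3% of all tested genes, and 2 had an unadjusted p under 0.05, beside 23.2%. The list's median was -0.02, with 7 genes above 0 and 10 below.

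Other long noncoding RNAs gave 13 tested genes. Of these, 0 passed edgeR's test, beside 4.83% of all tested genes, and 2 had an unadjusted p under 0.05, beside 23.2%. Groups did not overlap for 2 of the 13, beside 29.3%. The median log2 fold change was 0.07. TUG1, the most abundant of them, stood at 450, 471 and 426 CPM in co-culture 1, 2 and 3 and at 333, 377 and 394 CPM in the controls. The groups did not overlap, and the log2 difference, 0.29 (SE 0.08, edgeR adjusted p 0.0541), passed in 6 of 14 alternatives (adjusted p from 0.00603 to 0.349). NORAD, listed as LINC00657, and OIP5-AS1 stood at -0.08 and -0.06 (SE 0.06 and 0.07, edgeR adjusted p 0.489 and 0.655).

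Genes with a pattern like NEAT1 and MALAT1 were sought among 11647 genes with a mean of at least 5 CPM. Each gene was centred on its own mean log2 CPM, and likeness was the root mean square difference over the 6 libraries, where a lower value means a closer match. Nearest to NEAT1 were MANEA, which encodes a Golgi endomannosidase (0.0303), TIGD1 (0.0379) and XRCC4, a DNA end-joining factor (0.0385). The median over all genes was 0.219. MANEA stood at 86.6, 81.8 and 68.4 CPM in co-culture 1, 2 and 3 and at 59.6, 60.0 and 67.8 CPM in the controls, with a log2 fold change of 0.33 (edgeR adjusted p 0.0635). TIGD1 and XRCC4 had 0.35 and 0.28 (edgeR adjusted p 0.0995 and 0.138). Picking genes by likeness over these libraries also sets their fold changes near that of NEAT1, so these values are no separate result.

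Nearest to MALAT1 were SYNE2 (0.0307), ARID4A (0.0331) and DST (0.0541), against a median of 0.237. SYNE2 and DST encode very large cytoskeletal linker proteins, and ARID4A encodes a chromatin regulator. SYNE2 stood at 260, 274 and 185 CPM in co-culture 1, 2 and 3 and at 222, 192 and 235 CPM in the controls. Like MALAT1, all 3 were lowest in co-culture 3 and highest in co-culture 2. Their log2 fold changes were 0.15, 0.08 and 0.13 (edgeR adjusted p 0.585, 0.768 and 0.602). These fold changes, too, follow from the choice by likeness to MALAT1. The points share library depth and scaling, so likeness here only describes these 6 libraries.

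**Figure D4:**
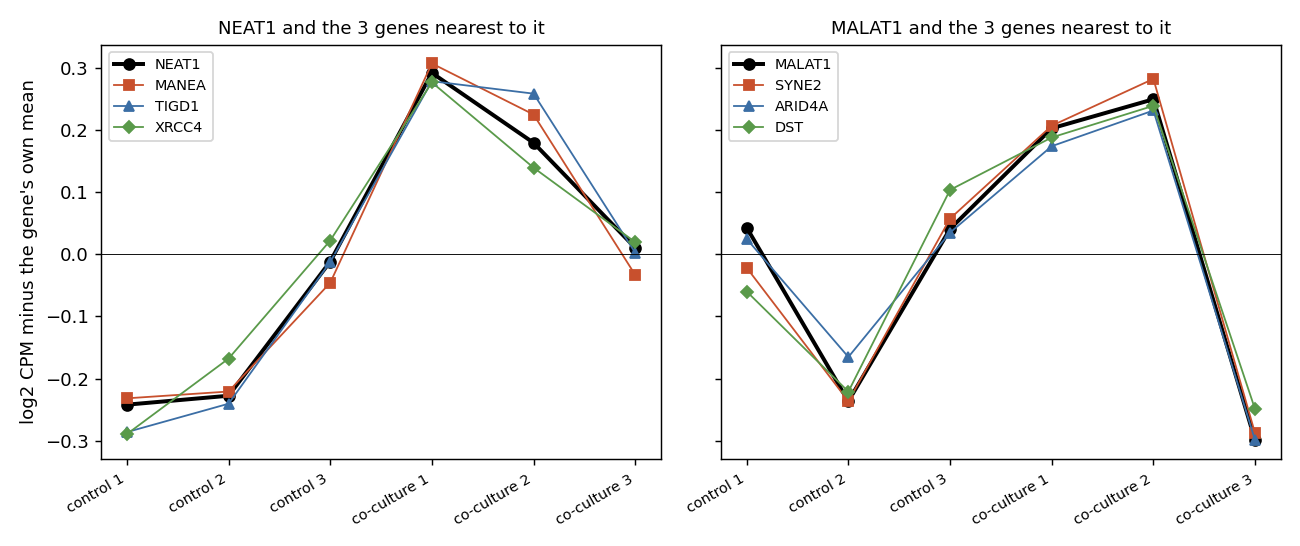
Log2 CPM minus each gene's own mean over the 6 libraries for NEAT1 and MALAT1 (black) and for the 3 genes nearest to each, with lines only to guide the eye. The genes near NEAT1 are lowest in controls 1 and 2 and highest in co-culture 1, and those near MALAT1 are lowest in co-culture 3.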

How the data were processed

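Per the labels' protocols, RNA came from a Tripure extraction and libraries from a stranded Illumina kit for mRNA. What the authors deposited are raw read counts per gene in the layout of STAR's gene counting. The submitters' processing notes name FastQC, STAR 2.53a and build hg18 without role or order, and the annotation is not given in the sources used here, so no genome coordinates are printed. Reverse-strand counts were used. The summary lines, which name no gene, took 6.48% to 8.42% (multimapping), 14.8% to 17.7% (no gene), 0.835% to 1.01% (ambiguous) and 1.22% to 1.67% (unmapped) of the reads and were left out. Multimapping reads are not counted, which lowers the counts of genes that have near-identical copies. Counting errors and bounds from 0 reads (3 reads) cover counting error only.

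Groups and numbers come from the titles. Libraries of a group were checked for repeated deposition: the chi-square per degree of freedom was 4.56 to 17.7, so each counted as 1 sample. edgeR 4.0.16 (R 4.3.3) fitted group alone with TMM scaling, filterByExpr (minimum count 10) and robust quasi-likelihood F tests. Alternatives were DESeq2 1.42.0, limma-voom (limma 3.58.1), total-count and upper-quartile scaling, no filter, counts without strand, a replicate block, the strand class (the libraries with few forward-strand reads) as a batch term, and each library left out. On simulated counts, 179 of 199 genes changed 2-fold (89.9%) were called, with 12 false calls among 191. This says nothing of changes as small as those here.

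Named were the 7 genes. Each list added up to 3 genes past the threshold in each direction. EWSR1, TAF15, HNRNPK, NUDT21, CPSF6, CPSF7 and MATR3 were added whatever their values (another gene of this rule is not reported here), as were the 3 most abundant other long noncoding RNAs and the 3 genes nearest to NEAT1 and to MALAT1. Members and lists were chosen with earlier results of these data known. In 3 lists, 1 or 2 entries each were found under an older symbol. A list of 13 mitochondrial RNAs, meant as a check of RNA quality, gave no values and was not used here. Sequences and lengths are from GENCODE 29 (GRCh38) transcripts.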

Additional observations from a re-analysis of the deposited data

How the results depend on the processing

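Of the 14 alternatives, NEAT1 passed with DESeq2 (0.32), without a filter on low counts (0.32) and without control 3. SFPQ lost its call with the replicate block (-0.26) and the batch term (-0.25), and PSPC1 with the batch term (-0.47) and without co-culture 2 or control 2. Leaving out each library in turn gave 0.26 to 0.40 for NEAT1, -0.30 to -0.22 for SFPQ and -0.53 to -0.43 for PSPC1. TARDBP changed sign with limma-voom (0.00098) and the batch term (0.059). With a library left out TARDBP ran from -0.079 to 0.053, RBM14 from -0.16 to 0.014, ARID4A from -0.020 to 0.24, CPSF7 from -0.051 to 0.084 and MATR3 from -8.04e-06 to 0.17. CPSF7 also changed sign with total counts (-0.020). The causes were not tested. NONO and MALAT1 kept their sign and stayed unpassed in all 14.

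Over all genes 704 passed, 388 of them higher. With the replicate block it was 164 (110 higher), with the batch term 29 (25 higher), and with a library left out from 65 to 3069 (48 to 1558 higher). The lowest was without control 2 and the highest without control 1. It was also 74, 123 and 321 without co-culture 2, 1 and 3. Total counts gave 35.1% higher against 55.1%, with the median gene at -0.04 against -0.00. The number of the 7 genes called was 2 in the main fit, and 3 with DESeq2 and 3 without a filter on low counts. It was 1 with the replicate block, 0 with the batch term and 0 to 2 with a library left out. The ratio of NEAT1 to MALAT1 kept its sign throughout, at 0.12 to 0.31 on the log2 scale with a library left out. No pairing by replicate number was seen, which cannot show that the libraries were unpaired. Deviations of same-numbered libraries correlated at -0.042, -0.085 and -0.091 across genes, and 0 of the 3 co-culture libraries lay closest to its own number. The block also ended the calls of U2AF1 and ZC3H6. The lowest counts of the 7 genes have counting errors of 0.800% to 3.06%, and the gap between the nearest NEAT1 libraries lies within its counting SD.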

Other observations

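Further lists around these RNAs held no gene past the threshold. Of 8 genes for the stability and partners of MALAT1, among them the m6A writers METTL3 and METTL14 and the reader YTHDC1, 0 passed edgeR's test and 2 had an unadjusted p under 0.05, with a median log2 fold change of -0.06. Of 7 genes of nuclear RNA decay, which hold exosome subunits and MTREX, 0 passed and 1 had an unadjusted p under 0.05, with a median of 0.08. Of 8 partners of NONO and SFPQ in DNA repair and in the retention of inosine-containing RNA, such as XRCC5, XRCC6, PRKDC and ADAR, 0 passed and 0 had an unadjusted p under 0.05, with a median of 0.03. Groups did not overlap for 3, 0 and 3 genes of these lists, beside 29.3% of all tested genes. Over all tested genes 4.83% passed edgeR's test and 23.2% had an unadjusted p under 0.05.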
